A study of Drosophila melanogaster with 12 samples.

Results

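The 4 arrays described here compared wing imaginal discs of the *ash2* allele 112411 (ash2-112411) with a pooled reference, out of 12 arrays of the series. They were chosen by their sample title alone. The mutant larvae carried w1118 and *ash2*-112411 on chromosome 3. The reference discs came from w1118;+;+, the isogenic DrosDel line that, by the methods, also gave the mutant stock its X, Y and second chromosomes, and their RNA was mixed into 1 pool. All larvae were in the third instar, staged on food with bromophenol blue at 25 °C. Mutant larvae were picked as Tb+ animals from a balanced stock, and RNA was extracted from pools of dissected discs. There were 2 extractions, and each went onto 2 arrays, once with the mutant in Cy5 and once in Cy3. The other 8 arrays of the series measured ash2-I1, the stronger *ash2* allele, and ash1-22 over ash1-22F2A against the same pool, and they serve here only to show where ash2-112411 differs. By the study's description ash2-112411 is the weaker allele, lethal as pharate adults with a few escapers.

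*ash2* belongs to the trithorax group, whose proteins keep developmental genes in an active state through cell divisions, while Polycomb group proteins keep them silent. ASH2 is a shared core subunit of the complexes that methylate lysine 4 of histone H3 at active promoters. The wing disc is a sheet of epithelium that divides in the larva and forms the adult wing and thorax after pupation.

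Every value is a log2 ratio of ash2-112411 over the reference pool, and a ratio gives no level of a gene. A gene is called up or down at an adjusted p under 0.05 and a change over 1.5-fold, a log2 ratio of 0.58. The fit averaged the 2 arrays of an extraction, so n is 2 extractions, and the pool counts as 1 control sample whose own spread is in no error given here. Of 12058 genes with a probe, 9708 were tested. In ash2-112411 discs 825 of them were called up, 8.50% of the genes tested, and 859 down, which is 8.85%. Over 2-fold, 240 genes were up and 139 down, and over 4-fold 27 were up and 3 down. The median of all genes was −0.00. In a sample of whole discs, fewer cells of a type and less RNA per cell cannot be told apart.

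The 4 arrays measured 10441 to 11179 spots each. The arrays grouped by dye: with the same dye, the extractions correlated at 0.836 (mutant in Cy5) and 0.938 (mutant in Cy3) across probes, against 0.370 and 0.775 between the dye-swapped arrays of extractions 1 and 2. The array of extraction 1 with the mutant in Cy5 stood apart. Without it 1067 genes were called up and 975 down. Of the 1339 called genes measured on all 4 arrays, 848 lay farther from 0 with the mutant in Cy5. The SE is that of extraction means and does not include this gap between dyes, so the values of both dyes are given for the genes described first. Another scaling gave fewer calls: with all 12 arrays brought to a common scale, 474 genes were up and 412 down. This scaling keeps the sign of every array value, so it is no check of direction.

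*ash2* itself was measured on 3 of the 4 arrays, at −2.07 on the extraction 1 array with the mutant in Cy5 and at −1.47 and −1.48 in extractions 1 and 2 with the mutant in Cy3. Its transcript was thus low on every array that measured it. The mean was −1.62 ± 0.16 (SE of the fit, n = 2 extractions), or 3.08-fold lower than in the pool (adjusted p = 0.00028, limma). Differences between alleles are given as ash2-112411 minus the other allele. In ash2-I1 discs the ratio was −1.75, and the difference of ash2-112411 from it, 0.13, did not pass (adjusted p = 0.68). In ash1-22 discs the ratio was 0.26, a difference of −1.88 (adjusted p = 0.0036).

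The wing disc label can be checked only by whether its genes had measured spots. Of 20 wing disc genes listed, 14 were tested. 5 of these fell and 2 rose, and the median was −0.17. *Dll*, which encodes the homeodomain protein that drives distal limb and wing margin fates, had −1.94 and −1.34 with the mutant in Cy5 (extractions 1 and 2) and −1.07 and −1.39 with the mutant in Cy3. It averaged −1.44 ± 0.08 (adjusted p = 0.00011), which is 2.7-fold lower. *ap*, the selector gene of dorsal fate, had −0.74 and −1.35 with the mutant in Cy5 and −1.37 and −1.40 in Cy3, a mean of −1.21 ± 0.10 (adjusted p = 0.00019). Both genes lay below 0 on each of the 4 arrays. *en*, the selector of the posterior compartment, fell by 0.82 on the log2 scale and its signalling target *hh* by 0.60. *vg*, the wing selector, fell by 0.81. The genes that rose were *mirr* (1.04) and *salm* (0.69), which encode transcription factors of the disc. *salm* was at 0.06 on the array that stood apart and between 0.65 and 1.14 on the others. The Hedgehog receptor gene *ptc* was at −0.07 (adjusted p = 0.46), *tsh* at −0.13 and *nub* at −0.21.

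The largest fall measured on all 4 arrays was that of *ImpE2*, a gene first found as ecdysone-inducible in imaginal discs. It had −3.11 and −3.45 with the mutant in Cy5 and −2.93 and −2.71 in Cy3, so that dye made little difference, and its mean of −3.05 ± 0.50 (adjusted p = 0.0021) corresponds to an 8.28-fold fall. *alphaSnap* encodes the adaptor through which NSF takes SNARE complexes apart after membrane fusion. It had −2.77 and −2.47 in Cy5 and −1.47 and −1.56 in Cy3, a mean of −2.07 ± 0.11 (adjusted p = 8.5e-05). In ash1-22 the ratio of *alphaSnap* was 0.02, a difference of −2.09 from it (adjusted p = 0.002), while the difference from ash2-I1 was 0.17 (adjusted p = 0.43).

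*GNBP3*, the receptor for fungal beta-glucans upstream of Toll, had −1.48 and −1.85 in Cy5 and −1.40 and −1.60 in Cy3, and a mean of −1.58 ± 0.13 (adjusted p = 0.00018). It too was at 0.00 in ash1-22 (difference −1.58, adjusted p = 0.0036). *Caf1-55*, a histone-binding WD40 protein shared by chromatin assembly and Polycomb complexes, had −1.37 and −1.85 in Cy5 and −1.53 and −1.45 in Cy3 (mean −1.55 ± 0.08, adjusted p = 8.5e-05). In ash1-22 *Caf1-55* was at −0.22 (difference −1.33, adjusted p = 0.0025). *Ctr9*, a subunit of the Paf1 elongation complex, showed the other arrangement. It was at −1.52 ± 0.10 in ash2-112411, at 0.02 in ash2-I1 (difference −1.54, adjusted p = 0.0025) and at −1.21 in ash1-22 (difference −0.30, adjusted p = 0.14).

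Other genes among the 15 that fell furthest were *Nnf1b*, a subunit of the kinetochore (−1.84 ± 0.08), *stai*, which encodes the microtubule destabilizer stathmin (−1.61 ± 0.10), *Usp1*, a deubiquitinase gene (−1.65 ± 0.12), *Dyrk2*, a protein kinase gene (−1.49 ± 0.09), and the cuticle protein gene *Cpr67Fa2* (−1.55 ± 0.16). *pst*, *nebu*, *CG9416*, *CG31125* and *CG11899* complete the 15. The values of the 15 on single arrays lay between −3.45 and −0.82.

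**Figure D1:**
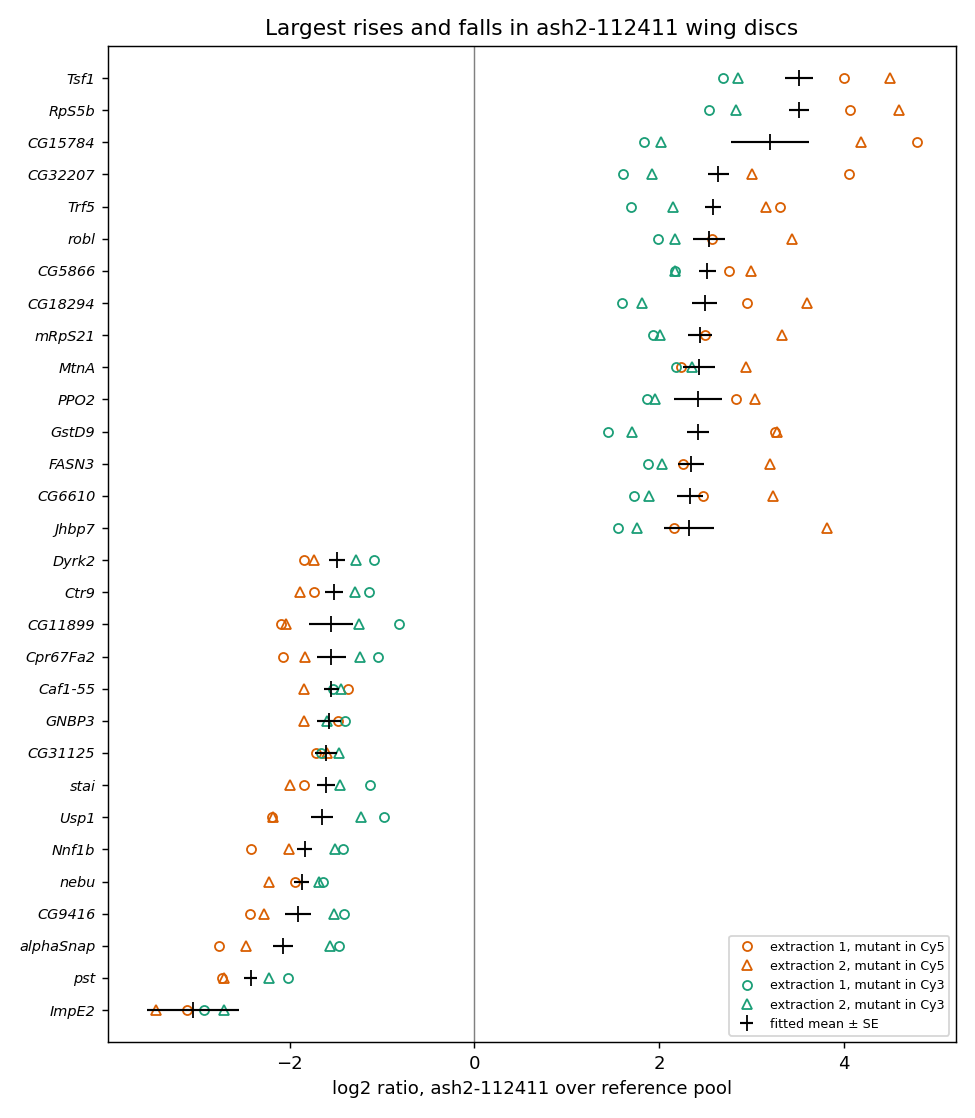
The 15 largest rises and the 15 largest falls among called genes measured on all 4 arrays with the same sign. The x axis is the log2 ratio of ash2-112411 over the reference pool. Open circles are extraction 1 and open triangles extraction 2, in orange with the mutant in Cy5 and in green with the mutant in Cy3, and the black mark is the fitted mean with its SE. For the risen genes the orange points reach 4.79 and the green points 2.85.

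The rises were larger than the falls at the top of the list, and more of their size came from the arrays with the mutant in Cy5. *CG15784* had 4.79 and 4.18 with the mutant in Cy5, against 1.83 and 2.02 in Cy3, and a mean of 3.20 ± 0.42 (adjusted p = 0.00087). *robl*, which encodes a light chain of the dynein motor, had 2.57 and 3.44 in Cy5 and 1.99 and 2.17 in Cy3 (mean 2.54 ± 0.17, adjusted p = 0.00011), or 5.82-fold higher. *MtnA*, a copper-binding metallothionein induced by metals, had 2.24 and 2.94 in Cy5 and 2.18 and 2.35 in Cy3, so both dyes gave a similar rise (mean 2.43 ± 0.17, adjusted p = 0.00013).

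*FASN3*, a fatty acid synthase gene, had 2.26 and 3.20 in Cy5 and 1.88 and 2.03 in Cy3 (mean 2.34 ± 0.14, adjusted p = 0.00013). *mRpS21*, a protein of the small subunit of the mitochondrial ribosome, had 2.49 and 3.33 in Cy5 and 1.93 and 2.01 in Cy3 (mean 2.44 ± 0.13, adjusted p = 8.5e-05). *PPO2*, the prophenoloxidase of crystal cells, had 2.83 and 3.04 in Cy5 and 1.87 and 1.95 in Cy3 (mean 2.42 ± 0.26, adjusted p = 0.00043). Each of these genes was above 0 on all 4 arrays. The other genes among the 15 were *Tsf1*, *RpS5b*, *GstD9*, *Jhbp7*, *Trf5*, *CG32207*, *CG18294*, *CG5866* and *CG6610*, with means of 2.32 to 3.51. *GstD9*, *RpS5b*, and *CG18294* belong to families of similar genes, and probes of such genes can bind more than 1 transcript.

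Gene groups were described by lists of function, each beside the shares of all genes tested that were called (8.50% up and 8.85% down). The adhesion and polarity genes of the epithelium had the lowest median. Of 37 tested genes for cell junctions and polarity 13 fell (35.1%) and 1 rose, with a median of −0.45. *shg*, which encodes E-cadherin, had −1.20 and −1.18 in Cy5 and −0.50 and −0.92 in Cy3 (mean −0.95 ± 0.12, adjusted p = 0.00077). *Cad87A*, another cadherin gene, was nearly the same on each array, from −1.04 to −0.95 (mean −0.99 ± 0.08). *ed*, an adhesion molecule of the immunoglobulin family at adherens junctions, fell by 0.95 and *Lac*, a component of septate junctions, by 0.92 on the log2 scale. *scrib*, a basolateral polarity gene, was measured only with the mutant in Cy5, at −1.48 and −0.95. *cno*, the afadin homologue, was the gene that rose (0.59), measured on 3 arrays.

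Other groups of the cytoskeleton and cell surface were counted in the same way. Of 40 genes for microtubules and motors 7 fell and 2 rose (median −0.20), among them *betaTub56D*, the major beta-tubulin (−1.29 ± 0.10), with *robl* as the highest. Axon guidance and cell surface genes had 6 falls and 3 rises of 46, with the netrin receptor *fra* lowest (−1.30 ± 0.09). For basement membrane and integrins the count was 2 down (the laminin chains *LanB2* and *LanA*) and 2 up (*Tig* and *Timp*) of 26. *LanA* (−0.52) and *Timp* (0.50) were not called without the array that stood apart. *LanA* had −1.13 and −0.89 in Cy5 and −0.37 and −0.47 in Cy3. *Timp* had 1.13 and 0.91 in Cy5 and 0.36 and 0.37 in Cy3. Both were thus past the threshold only with the mutant in Cy5.

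Genes of DNA replication and chromosome segregation had many falls and few rises. Of 50 replisome genes 13 fell (26.0%) and 3 rose (median −0.42). 3 subunits of the MCM helicase were among them. *Mcm5* had −0.89 and −1.25 in Cy5 and −1.13 and −1.27 in Cy3 (mean −1.14 ± 0.09, adjusted p = 0.00015). *dpa*, which encodes Mcm4, had −1.46 and −1.56 in Cy5 and −0.24 and −0.87 in Cy3 (mean −1.03 ± 0.10), and *Mcm6* fell by 0.91 ± 0.09. The GINS subunit *Psf2* rose (0.83), as did *Orc4* (0.70) and *RPA3* (0.63).

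Of 48 genes for the kinetochore, cohesin and condensin 14 fell (29.2%) and 2 rose, with a median of −0.43. *Cap-G*, a condensin subunit, fell by 0.96 ± 0.09, and *Mps1*, the spindle checkpoint kinase, had values between −0.99 and −0.79 (mean −0.92 ± 0.10). *Zwilch*, another checkpoint component at kinetochores, fell by 0.92 ± 0.07. *Nipped-B*, which loads cohesin, was the clearest exception. It had 1.66 and 1.26 in Cy5 and 1.09 and 1.08 in Cy3, a mean of 1.27 ± 0.08 (adjusted p = 0.00015). *Spc25* rose as well (0.96 ± 0.11). The DNA repair and checkpoint list had 8 falls and 2 rises of 46 (median −0.13), and the O6-alkylguanine transferase gene *agt* was its highest (1.64 ± 0.12). Nucleotide synthesis had 6 falls and 1 rise of 27 (median −0.28), among the falls *RnrL*, the large subunit of ribonucleotide reductase (−0.80).

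Nuclear transport genes fell in 11 of 39 (28.2%), and 2 rose (median −0.39). The falls were small, from −0.78 for *Ote*, an inner nuclear membrane protein, to −0.58. *Nup358*, the filament protein of the nuclear pore, had −0.90 and −0.87 in Cy5 and −0.36 and −0.77 in Cy3 (mean −0.73 ± 0.09), and the importin gene *msk* fell by 0.75. The mRNA export factors *Rae1* (0.82) and *Nxt1* (0.65) rose. With the arrays brought to a common scale 1 of the 39 genes fell (2.56%), against 4.24% of all genes tested.

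Among the histone acetyltransferases and remodellers 11 of 49 fell (22.4%) and 3 rose (median −0.32). Both histone demethylases that fell act on methylated H3, *Kdm5* on lysine 4 and *Kdm4A* on lysines 9 and 36. *Kdm5* had −0.83 and −1.02 in Cy5 and −1.04 and −1.08 in Cy3 (mean −0.99 ± 0.08, adjusted p = 0.00017), and *Kdm4A* averaged −1.02 ± 0.10. *Iswi*, the motor of several remodelling complexes, fell by 0.85. *Nph*, a nucleoplasmin gene, rose (1.08 ± 0.09). In the list of heterochromatin, insulators and dosage compensation 7 of 35 fell and 2 rose (median −0.30). The insulator proteins *Cp190* (−0.85) and *BEAF-32* (−0.74) and the DNA replication-related factor *Dref* (−0.91) fell, and *ADD1* rose (1.36 ± 0.14), with 2.29 on its highest array and 0.82 on its lowest.

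Ubiquitin ligases and conjugating enzymes had 12 falls of 52 (23.1%) and no rise (median −0.32). *Cul3*, the scaffold of a family of ubiquitin ligases, had −0.89 and −1.26 in Cy5 and −1.02 and −1.02 in Cy3 (mean −1.05 ± 0.11, adjusted p = 0.00037), and *Uch*, a ubiquitin hydrolase, fell by 1.01. Without extraction 2 of ash2-112411 6 genes of this list were down. On the common scale, where 412 genes or 4.24% fell in all, the falls numbered 6 for junctions and polarity (16.2%), 9 for the kinetochore list (18.8%), 5 for the replisome (10%), 3 for the acetyltransferase list (6.12%) and 3 for ubiquitin (5.77%). Secretory pathway genes had 14 falls and 2 rises of 79 (median −0.18). Besides *alphaSnap*, both *Srp72* (−0.99) and *Srp68* (−0.78) of the signal recognition particle fell, as did *Chc*, the clathrin heavy chain (−0.79 ± 0.18). *Chc* had −1.22 and −1.23 in Cy5 and −0.18 and −0.53 in Cy3. It was at −0.53 and not called without the array that stood apart. *Rab3*, of regulated secretion, rose (1.04). ER folding, stress and glycosylation had 7 falls and 2 rises of 55 (median −0.25), with *crc*, the ATF4 homologue, at −0.93 ± 0.09 and the p97 cofactor *Npl4* at 1.58 ± 0.18. For autophagy and lysosome the count was 3 falls and 1 rise of 47.

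**Figure D2:**
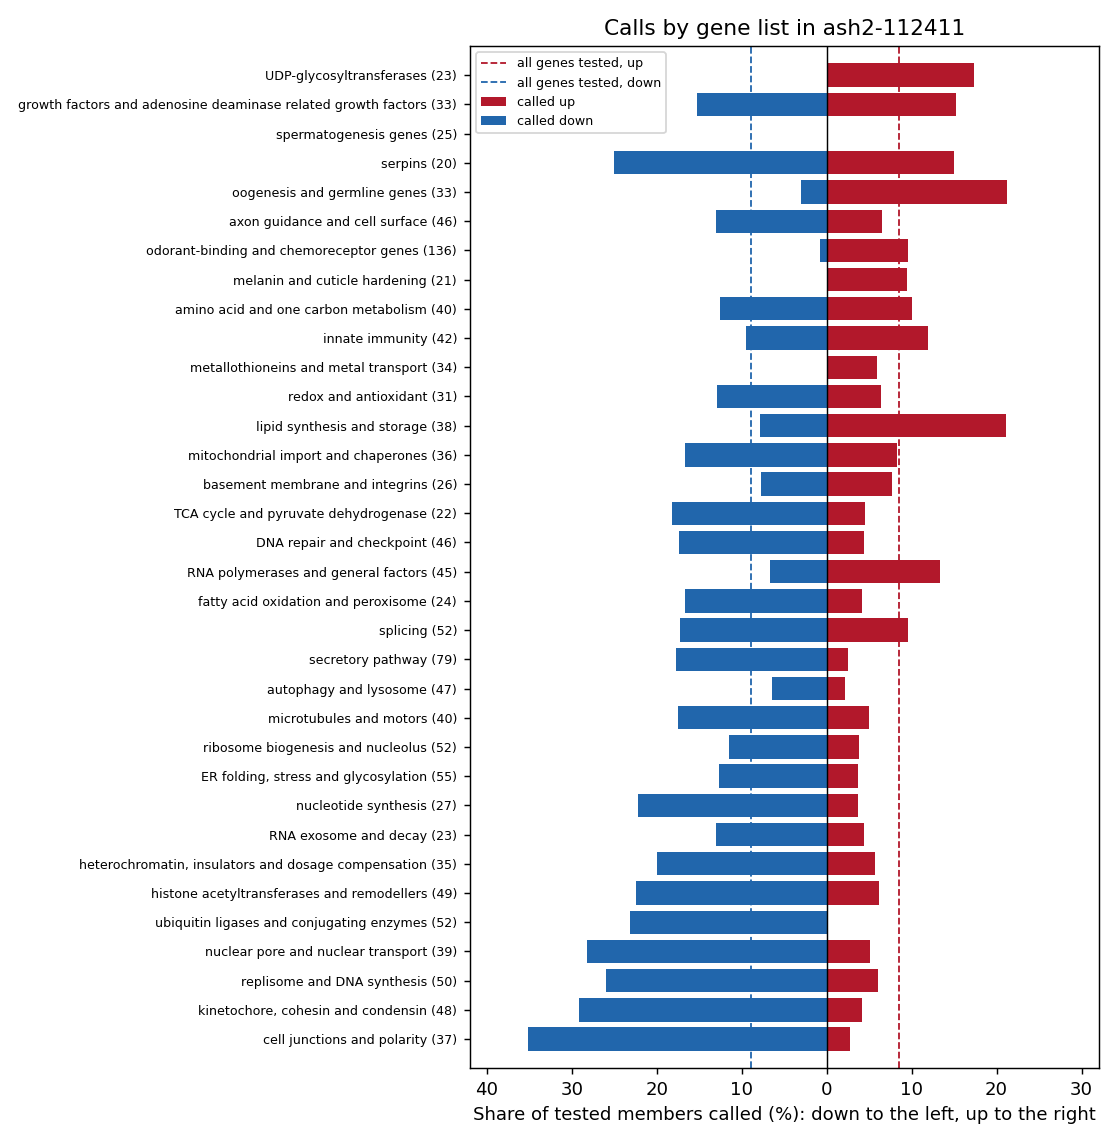
Share of tested members called up (red, to the right) and down (blue, to the left) in ash2-112411 for the lists of function with at least 20 tested genes, 1 list left out, in order of its median log2 ratio, highest at the top. The number in brackets is the number tested, and the dashed lines mark all genes tested, 8.50% up and 8.85% down; the longest blue bar is that of cell junctions and polarity at 35.1%.

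The RNA processing and transcription lists held calls in both directions. In the splicing list 9 of 52 fell and 5 rose (median −0.17). *LSm7*, of the ring that binds U6 snRNA, had 1.51 and 2.52 in Cy5 and 1.40 and 1.45 in Cy3 (mean 1.72 ± 0.12, adjusted p = 0.00013). The Sm core genes *SmB* (0.88), *SmF* (0.74) and *SmD2* (0.68) rose as well. *SmD1* (0.42), *SmE* (−0.06) and *SmD3* (−0.22) were not called. Of the falls, *Sf3b2*, of the U2 snRNP, was at −1.07 ± 0.07. *B52*, an SR protein gene, was at −0.02 on the array that stood apart and at −1.09, −1.64 and −1.33 on the others. Among RNA polymerases and general factors 6 of 45 rose and 3 fell (median −0.15). The risen genes included *Polr2L*, a small subunit shared by the RNA polymerases (1.07 ± 0.08), and *Taf11* (0.78). *Brf*, the TFIIIB subunit, fell by 1.10 and *CycT*, the cyclin of P-TEFb, by 0.94.

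Prefoldin hands newly made actin and tubulin to the CCT chaperonin. Of 14 genes of both complexes 3 rose, all of prefoldin, and none fell. *Pfdn6* had 0.82 and 1.59 in Cy5 and 1.16 and 1.05 in Cy3 (mean 1.16 ± 0.10, adjusted p = 0.0002), *Pfdn2* averaged 1.06 ± 0.09 and *Pfdn1* 0.70 ± 0.07. *Pfdn4* and *Pfdn5*, at 0.57 and 0.56, were just under the fold threshold. *mgr*, another prefoldin gene of the list, was at 0.01 and not called. The 8 CCT subunits lay between −0.58 (*CCT6*) and −0.09 (*CCT7*), none of them called. Ribosome biogenesis had 6 falls and 2 rises of 52 (median −0.24), and *Nop10* of the H/ACA particle rose (1.02). RNA exosome and decay had 3 falls and 1 rise of 23, counting *Caf1-55*, which acts on chromatin and not in RNA decay. The list symbols *Dcp1* and *Dcp2* were not matched, so this count leaves out *DCP2*, which fell (−1.11). Translation elongation and termination had 3 falls of 17, both release factors *eRF3* (−0.81) and *eRF1* (−0.59) and the tRNA synthetase *GluProRS* (−1.15).

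Most metabolic lists held calls in both directions. The TCA cycle and pyruvate dehydrogenase list had 4 falls and 1 rise of 22. *Idh*, which makes NADPH from isocitrate, had −0.82 and −1.75 in Cy5 and −1.36 and −1.52 in Cy3 (mean −1.36 ± 0.13, adjusted p = 0.00024). Mitochondrial import and chaperones had 6 falls, *Hsp60A* the lowest (−0.85), and 3 rises of 36, among them the small chaperone of the intermembrane space *Tim9a* (1.17 ± 0.08). Fatty acid oxidation and peroxisome had 4 falls and 1 rise of 24, with *Acadvl*, the very long chain acyl-CoA dehydrogenase, at −1.01. Lipid synthesis and storage was 1 of the lists with more rises, 8 of 38 (21.1%), against 3 falls. Besides *FASN3* these were the fatty acid elongase *bond* (1.03) and the acyltransferase *Agpat2* (1.02), while *Lsd-2*, a perilipin of lipid droplets, fell by 1.10 ± 0.09 and *mdy*, which makes triglyceride, by 0.82.

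Amino acid and one carbon metabolism had 5 falls and 4 rises of 40. The glutamine synthetase *Gs2* rose (1.46 ± 0.12), and *Sam-S*, which makes S-adenosylmethionine, the methyl donor of histone methylation, fell by 0.85 ± 0.08. In the redox list 4 of 31 fell and 2 rose, with *Sod3*, an extracellular superoxide dismutase, at −1.15 ± 0.08, catalase (*Cat*) at −0.88 and the peroxiredoxin *Prx6a* at 1.16 ± 0.07. Of 34 genes for metallothioneins and metal transport only *MtnA* and *Tsf1* were called, both up, and the median was −0.01. Of 23 UDP-glycosyltransferases 4 rose and none fell (median 0.24). *Ugt50B3* had 2.12 and 2.44 in Cy5 and 1.51 and 1.76 in Cy3 (mean 1.96 ± 0.11). The carboxylesterase list had 2 rises of 15, and 1 of them, *Nlg1*, encodes the synaptic adhesion protein neuroligin.

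Lists of genes of other tissues and stages varied in their share of calls. Of 136 odorant-binding and chemoreceptor genes 13 rose (9.56%) and 1 fell (0.735%), with *Obp58b* at 1.63 ± 0.09 and *Or59a* at 1.50 ± 0.15. Oogenesis and germline genes rose in 7 of 33 (21.2%) and 1 fell. The 7 include *RpL24-like* (0.88) and *RpS5b* (3.51), whose probe can bind more than 1 transcript. *pum*, a translational repressor gene, had 2.18 and 1.80 in Cy5 and 0.92 and 1.09 in Cy3 (mean 1.50 ± 0.07), *RpS19b* averaged 1.15 ± 0.15, and *tud* fell by 0.91. No spermatogenesis gene of 25 and no eye pigment gene of 18 was called. Of the serpins 5 of 20 fell and 3 rose, among them *Spn27A*, the inhibitor of melanization (−1.02), and *Spn100A* (1.29). Innate immunity genes had 5 rises and 4 falls of 42, the falls being *GNBP3* and the Toll pathway genes *Tl* (−0.74), *pll* (−0.66) and *tub* (−0.62). *Tl* had −1.40 and −1.09 in Cy5 and −0.15 and −0.32 in Cy3. It was at −0.43 and not called without the array that stood apart. Growth factor genes had 5 rises and 5 falls of 33, with the midkine homologue *miple1* lowest (−1.34 ± 0.23). Of 15 Osiris genes 2 rose, of 21 genes for melanin and cuticle hardening 2 rose (*PPO2* and *PPO1*), and of 10 circadian clock genes 2 fell (*cyc* and *nocte*). *cyc* had −1.24 and −1.01 in Cy5 and −0.17 and −0.39 in Cy3. Without the array that stood apart it was at −0.44 and not called.

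Markers of other cell types were measured beside these results. Of 17 muscle markers 4 rose and 1 fell (median 0.33, from −0.84 for *Msp300* to 1.37 for *Mlc2*). Of 9 hemocyte markers 3 rose (median 0.34). *PPO2* was the highest at 2.42, while *srp* (−0.05), *lz* (−0.02) and *He* (0.17) were near 0. Of 6 tracheal markers 3 rose (*Gasp* 0.94, *vvl* 0.71 and *btl* 0.64), with a median of 0.49. Of 6 fat body markers 2 rose (*Tsf1* 3.51 and *Yp2* 0.69), and the storage protein genes *Lsp2* and *Fbp1* were at 0.44 (adjusted p = 0.7) and −0.28 (adjusted p = 0.63). Gut markers had 3 rises and 1 fall of 29, leg and haltere disc markers 1 of each of 6 (*al* 0.59 and *dac* −1.06), and none of 4 adult muscle precursor, 8 salivary gland or 8 nervous system markers was called. *PPO2*, *PPO1*, *btl*, *Tsf1* and *Yp2* are also members of the lists of function. The part of such cells in the rises was not tested.

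The calls also divided by the length of the gene, taken from first to last annotated base with introns (RefSeq Release 6, 9400 of the 9708 genes). The median length was 1634 bases for genes called up, 4372 for genes called down and 2401 for all genes tested. Of 1284 genes of 1000 bases or less 215 rose (16.7%) and 25 fell (1.95%). Of 3888 genes over 3000 bases 216 rose (5.56%) and 565 fell (14.5%). Rises were most frequent from 501 to 750 bases, at 22.2% with 2.08% falls, and falls from 5001 to 10000 bases, at 15.3% with 5.84% rises.

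Each of the 4 arrays showed this order. For genes of 501 to 750 bases the median ratios were 0.11 and 0.21 with the mutant in Cy5 and 0.23 and 0.19 in Cy3, and for 3001 to 5000 bases they were −0.11 and −0.15 in Cy5 and −0.18 and −0.16 in Cy3. Short genes with a call include *LSm7* (786 bases), *Polr2L* (488), *Nop10* (381), *Tim9a* (684), *robl* (658), *mRpS21* (534) and *CG5866* (767). Lists with many falls differed in length. The median was 15266 bases for wing disc genes, 11778 for cell junctions and polarity and 3966 for nuclear transport. It was 3093 for the kinetochore list and 2646 for the replisome, nearer that of all genes tested (2401). The part of gene length in the calls of a list was not tested.

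**Figure D3:**
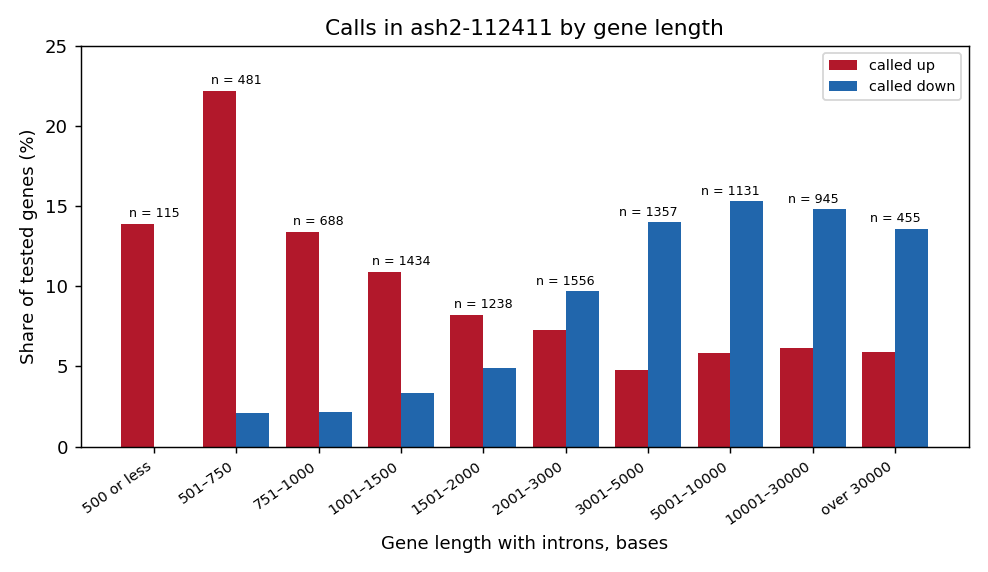
Share of tested genes called up (red) and down (blue) in ash2-112411 for classes of gene length, introns included, with the number of genes tested over each pair of bars. Rises are most frequent at 501 to 750 bases (22.2%), and from 2001 bases on more genes fell than rose.

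The mutant stock shares its X, Y and second chromosomes with the reference line and can differ from it on chromosomes 3 and 4, so an effect of the allele and of other variants on those chromosomes cannot be told apart. By chromosome arm, 8.30% to 8.87% of the genes on 2L, 2R, 3L, 3R and X rose. Falls made up 7.89% to 8.65% on 2L, 2R, 3R and X and 11.2% on 3L (208 of 1850). *ash2* itself lies on 3R. Of the 40 genes tested on chromosome 4, 9 fell (22.5%) and 4 rose.

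In 18 places at least 3 tested genes in a row along a chromosome were called the same way, 10 up and 8 down, with 55 genes in all. How many such runs would arise from calls without any order along the chromosomes was not estimated. Of the 18, 3L held 10, and it held 1850 of the 9708 genes tested. *ImpE2* fell beside its neighbours *Eip63E*, a cyclin-dependent kinase gene (−1.23 ± 0.07), and *CG10359* (−0.60), and *Ctr9* beside *sturkopf* (−0.84) and *Herc4* (−0.81). *DCP2*, the decapping enzyme gene (−1.11), lay in a fallen run with *CkIIalpha-i1* and *dbo*. *miple1* and *miple2* (−0.68) fell with *fwd*. Among the raised runs were *Nplp4* (1.66), *CG15353* (1.63) and *CG33543* (0.60). *CG33543* had 0.63 and 0.93 in Cy5 and 0.35 and 0.51 in Cy3. It was at 0.53 and not called without the array that stood apart. Also raised were a run of 4 genes with *Cpr49Ag* (1.19) and *Cpr49Ah* (1.32), and *GstE5* (1.24), *GstE6* (2.17) and *GstE7* (1.17). The GstE and Cpr49 genes are similar copies, so their probes may share signal. In 11 of the 18 runs no other protein-coding gene lay between the members.

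The alleles were compared by contrasts in the same fit, in which the pool cancels. Between ash2-112411 and ash2-I1, 401 of 6308 genes were higher (6.36%) and 512 lower (8.12%) in ash2-112411. Between ash2-112411 and ash1-22, 466 of 7286 were higher (6.40%) and 397 lower (5.45%). These counts depend on single extractions and on the scale, since each allele's arrays had been scaled on their own. Without extraction 2 of ash1-22 296 genes differed from ash1-22 in place of 863, and without its extraction 1 the count was 537. On the common scale 587 genes differed from ash2-I1, in place of 913, and 405 from ash1-22.

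From both other alleles at once, 130 genes were higher in ash2-112411 (2.41% of 5398 tested in all 3) and 86 lower (1.59%). Of the 130, 123 were also called up over the pool, and of the 86, 74 were called down and 1 up. The higher genes were short. Of 130, 67 (51.5%) were 1000 bases or less, against 11.7% of the genes tested in all 3 alleles, and none of the lower genes was. In the other alleles the short genes also lay above 0, with medians for 501 to 750 bases of 0.14 in ash2-I1 and 0.06 in ash1-22.

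Among the higher genes measured on all 4 arrays *MtnA* had the largest difference from the nearer allele. It was at 2.43 in ash2-112411, against 0.61 in ash2-I1 (difference 1.82 ± 0.24, adjusted p = 0.0037) and 0.32 in ash1-22 (difference 2.11 ± 0.24, adjusted p = 0.0034). *robl*, at 2.54, was at 0.44 in ash2-I1 and 1.11 in ash1-22, and *mRpS21*, at 2.44, at 0.87 and 1.05. The differences of *robl* were 2.11 (adjusted p = 0.003) and 1.43 (adjusted p = 0.0082). *CG5866*, at 2.52, was at 0.24 in ash2-I1 and 0.96 in ash1-22. *CG32069* was measured on 3 arrays in ash2-112411, at 2.85, 4.02 and 1.73.

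Among the lower genes, *crc* was at −0.93 in ash2-112411, against 0.04 in ash2-I1 (difference −0.97, adjusted p = 0.0036) and −0.07 in ash1-22 (difference −0.85, adjusted p = 0.0062). *Gdh*, the glutamate dehydrogenase gene, was at −0.66 in ash2-112411, 0.77 in ash2-I1 and 0.20 in ash1-22, with differences of −1.43 (adjusted p = 0.0036) and −0.86 (adjusted p = 0.017). *Pef*, *nocte*, *Drat*, *Tsp42Ee*, *CG12643* and *CG13895* complete the 8 with the largest difference. *Tsp42Ee*, a tetraspanin gene, was not called over the pool in ash2-112411 (−0.52 ± 0.12).

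**Figure D4:**
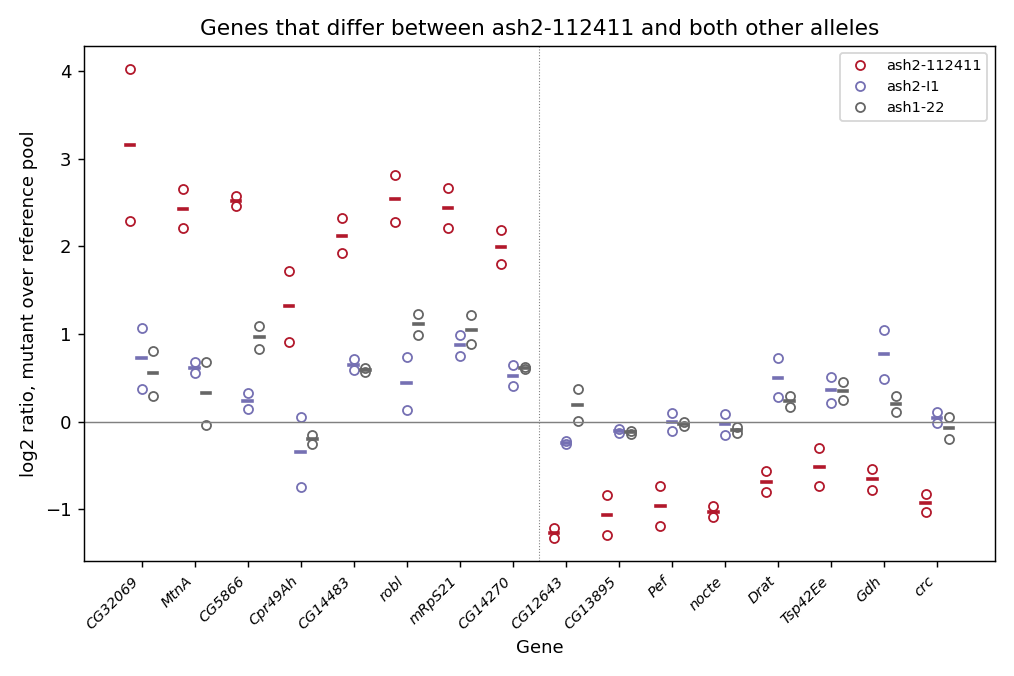
The 8 genes with the largest difference upward (left of the dotted line) and downward (right of it) between ash2-112411 and both other alleles. The y axis is the log2 ratio of the mutant over the reference pool, circles are the 2 extractions of an allele and bars their mean; *MtnA* reads 2.43 in ash2-112411 (red), 0.61 in ash2-I1 (violet) and 0.32 in ash1-22 (grey).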

How the data were processed

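The authors hybridized amplified RNA on 2-colour oligonucleotide arrays and deposited, for 16416 spots, the log2 ratio of the Cy5 to the Cy3 signal. By the methods, the authors quantified spots with GenePix, removed spots of low quality, corrected background with normexp in limma, normalized within arrays with OLIN and scaled each allele's 4 arrays by their median absolute deviation. Values were multiplied by −1 where the mutant was in Cy3. Of the spots, 13164 carry 1 gene symbol, and 101 with several and 3151 not listed in the annotation were left out. Tests covered the 10407 probes with at least 1 measured array in each extraction. A spot measured with the mutant in 1 dye alone (540 probes, 39 called genes) keeps its dye bias. Dye-swapped arrays were averaged by extraction. A linear model with 1 mean per allele was fitted across the 6 extractions (limma 3.58.1, R 4.3.3), and each mean was tested against 0 with Benjamini-Hochberg adjustment over all probes tested. Nothing in the labels says that the extractions came from separate cultures of larvae, so p-values measure the spread between extractions. The probe measured on the most arrays stands for a gene.

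The fit was tested on simulated data for the comparison of ash2-112411 with the pool (10407 probes). Changes were put into 100 probes at log2 1 and into 100 at log2 2. The fit called 90% and 100% of these, and 7.77% of its 206 calls were false. These shares describe the simulated data alone. Of the 825 genes called up and 859 down on the real arrays, 240 and 139 changed over 2-fold. How often smaller changes are found, or real calls are false, was not tested.

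The 42 lists of function and 9 marker lists were written from general knowledge with earlier results of these data known, as were the members chosen, and 48 of their symbols were not matched. The result of 1 list of function is not reported here. Named were *ash2*, the 15 largest changes each way measured on all 4 arrays with 1 sign, up to 6 called members of a list by size, the 8 largest differences each way from both other alleles, and members of runs of 3 neighbours. *Orc4*, *RPA3*, *Chc*, *SmD2*, *SmF*, uncalled genes and others beyond these limits were named after their values were seen. Promoter motifs were not analysed here. The files give ratios without the signal behind them, and the number of arrays limits the precision.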

Additional observations from a re-analysis of the deposited data

Results flagged for a closer look

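In the limma contrasts a gene differed from both other alleles if over 1.5-fold from each allele, with both adjusted p under 0.05. Of 5398 genes tested in every allele, 130 were higher in ash2-112411 by this rule (2.41%) and 86 lower (1.59%). Genes were named mostly for the size of their change, and 8 each way for this difference itself. Their number is therefore not comparable with these shares. Among the genes named in a list, a run or a ranking, 54 differed between ash2-112411 and both other alleles. The value given for each is the log2 ratio in ash2-112411 minus that in the allele nearer to it. Of these, 26 were higher in ash2-112411: *CG32069* (2.44), *MtnA* (1.82), *CG5866* (1.56), *Cpr49Ah* (1.52), *CG14483* (1.47), *robl* (1.43), *CG14270* (1.39), *mRpS21* (1.39), *CG6610* (1.35), *PPO2* (1.22), *CG15353* (1.18), *Obp56a* (1.14), *Cpr49Ag* (1.11), *LSm7* (1.07), *alpha-Est8* (0.98), *Nplp4* (0.90), *CG14572* (0.87), *ADD1* (0.77), *Timp* (0.71), *vvl* (0.68), *Pfdn6* (0.64), *btl* (0.64), *CG14566* (0.64), *Polr2L* (0.61), *Prx6a* (0.59) and *Pfdn1* (0.58). Members of the splicing, polymerase and prefoldin lists (*LSm7*, *Polr2L*, *Pfdn6* and *Pfdn1*) are on this side. Their gene lengths are 786, 488, 1018 and 760 bases. Other members of the splicing list (*Sf3b2*, −0.71, and *B52*, −0.70) and of the polymerase list (*Brf*, −0.80) were lower in ash2-112411. The tracheal markers *btl* and *vvl* are also among the higher genes, but the tracheal list as a whole did not differ in this way. Its median difference was −0.08 from ash2-I1 (5 markers tested) and 0.04 from ash1-22 (6 tested).

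The 28 genes lower in ash2-112411 were *CG12643* (−1.03), *CG13895* (−0.95), *Pef* (−0.94), *nocte* (−0.94), *Drat* (−0.91), *Tsp42Ee* (−0.87), *Gdh* (−0.86), *crc* (−0.85), *Msp300* (−0.83), *Moe* (−0.82), *Sam-S* (−0.81), *Brf* (−0.80), *alpha-Spec* (−0.72), *Sf3b2* (−0.71), *CG3634* (−0.71), *B52* (−0.70), *GluProRS* (−0.70), *dpa* (−0.69), *Acadvl* (−0.68), *Mcm6* (−0.68), *betaTub56D* (−0.67), *RnrL* (−0.67), *Nup358* (−0.66), *RfC4* (−0.65), *Eip63E* (−0.64), *dnk* (−0.63), *Cap-G* (−0.59) and *Mcm5* (−0.58). They include the MCM genes *dpa*, *Mcm6* and *Mcm5*, the condensin gene *Cap-G*, the splicing factors *Sf3b2* and *B52* and the cytoskeletal genes *Moe*, *alpha-Spec* and *betaTub56D*. No gene could be examined for a single outlying sample, since an allele has 2 extractions.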

How the results depend on the processing

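The 825 rises, 859 falls, 913 differences from ash2-I1 and 863 from ash1-22 stayed within 1.5 times under the other alternatives tried (arrays as replicates, ash2-112411 extractions alone, both dyes required in an extraction, each array centred on its median, a robust prior, any probe of a gene), and no called gene that is named changed direction in any refit. Requiring all 4 arrays left 547 differences from ash2-I1 and 539 from ash1-22. The common scale gave 474 rises, 412 falls, 587 differences from ash2-I1 and 405 from ash1-22, and 90 of 298 called genes that are named in a list, a run or a ranking were then below the threshold. It shrinks the ash2-112411 ratios, since their deviation was the largest of the 3 alleles. Leaving out 1 extraction at a time gave 741 to 1038 rises, 763 to 1048 falls, 610 to 1301 differences from ash2-I1 and 296 to 1103 from ash1-22. Without extraction 2 of ash2-112411 42 of the 298 named called genes were below the threshold, and without extraction 1, 9.

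With the replicate block there were 828 rises, 859 falls, 918 differences from ash2-I1 and 871 from ash1-22, and it changed no call among the named genes. The extractions share only a number: deviations of the same number correlated at 0.102 between ash2-I1 and ash2-112411, −0.044 between ash2-I1 and ash1-22 and −0.162 between ash2-112411 and ash1-22.

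3 alternatives were chosen after seeing the data. Without the extraction 1 array with the mutant in Cy5, 29 of 286 named called genes measured were below the threshold. With the Cy5 arrays alone there were 842 rises and 842 falls (39 of 263 below), and with the Cy3 arrays alone 1043 and 960 (48 of 278 below). Counts within lists moved as well: ER folding, stress and glycosylation had 13 falls in place of 7 without that array, and odorant-binding and chemoreceptor genes 21 rises in place of 13.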

Other observations

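Of the spots that carry no single gene symbol in the annotation, 834 were measured on all 4 ash2-112411 arrays. 27 of these were over a log2 ratio of 0.58 on all 4 arrays and 53 under −0.58.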
